A study of Mus musculus with 28 samples.

Results

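Neurofilament genes and the other neuronal intermediate filament genes were followed through ribosome profiling of the mouse motor neuron-like line MN1 and of cultured cortical neurons that expressed human TDP-43 (hTDP-43), its ALS-linked mutant A315T, or neither. The 7 genes were chosen by name from the 45513 genes listed in the count tables: Nefl, Nefm and Nefh, which encode the light, medium and heavy neurofilament subunits, Ina (α-internexin), Prph (peripherin), Vim (vimentin) and Nes (nestin). Each of 14 cultures was sequenced as ribosome footprints and as total mRNA, for 28 libraries. MN1 cells, a clonal hybrid line of mouse spinal motor neuron and neuroblastoma, were transiently transfected with plasmids that encode GFP, hTDP-43 or its A315T form, with 2 cultures for each plasmid, and all of them received cycloheximide at 100 µg/mL for 3 min before lysis. Neurons were taken from cortices of C57BL/6J embryos at embryonic day 16 and kept in culture to day 14, with 0.5 µM Ara-C added on day 4 to remove dividing cells, and had no cycloheximide before lysis. They were non-transgenic littermates (WT, 2 cultures, numbered 2 and 3) or carried human TARDBP under the prion protein promoter as hemizygotes, either as the wild-type gene (hTDP-43, 3 cultures) or with the A315T mutation (3 cultures). Replicates were separate cultures, and the replicate number goes with a date that the sample titles share, apart from the year in 1 title. Total RNA was selected for poly(A) and footprints were not.

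Neuronal intermediate filaments fill the axon and set its calibre. Nefl forms the core of the neurofilament, Nefm and Nefh add long side arms, Ina co-assembles with them in the central nervous system, and Prph is the related subunit of peripheral and spinal motor neurons. Vim and Nes belong to neural progenitors and glia and are largely replaced by neurofilaments as neurons mature. Neurofilament light mRNA is bound and stabilised by several RNA-binding proteins, TDP-43 among them, which prefers runs of alternating U and G, and neurofilament accumulations are a hallmark of ALS motor neurons.

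The genes lie on 6 chromosomes of GRCm38, and Nefl and Nefm are neighbours in opposite orientation. Nefl (ENSMUSG00000022055) spans chr14:68083863-68089095 on the plus strand and Nefm (ENSMUSG00000022054) spans chr14:68082590-68124846 on the minus strand. Exons of Nefm run antisense through 1108 nt of Nefl (chr14:68083863-68084970), which is 32.8% of the exon length of Nefl. The stretch holds 1008 coding nt of Nefl, or 61.9% of its coding sequence, but none of the coding sequence of Nefm. Ina (ENSMUSG00000034336, chr19:47014698-47025327, plus strand) shares 456 nt with an exon of the antisense gene Nt5c2, or 14.1% of its exon length. Of these, 399 nt are coding, or 26.5% of the coding sequence of Ina. Prph (ENSMUSG00000023484, chr15:99055174-99058978, plus), Vim (ENSMUSG00000026728, chr2:13573927-13582826, plus), Nefh (ENSMUSG00000020396, chr11:4938754-4948064, minus) and Nes (ENSMUSG00000004891, chr3:87971078-87980451, plus) share no exon with another gene. The study's counting gives no option for strand or for reads on shared exons, and the counter's default leaves such reads out, so the levels of Nefl and Ina are uncertain and may be understated, footprints most of all. Comparisons of 1 gene between groups within a library type use the same countable stretch throughout.

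Because TDP-43 prefers UG repeats, the longest uninterrupted run of alternating U and G was found in each gene's transcript of GENCODE M21 (GRCm38). The 3 genes with a run of at least 6 nt are shown with up to 12 nt on either side, and capitals mark the run. In Nefl it lies in the 3′ UTR (chr14:68088404-68088409, plus strand), in Nefm in the 3′ UTR of a 3680-nt transcript and within the stretch shared with Nefl (chr14:68084223-68084228, minus strand), and in Nes in the coding sequence (chr3:87977903-87977909, plus strand).
Nefl: agcucaugaaugGUGUGUugucugcuuaau
Nefm: ugugccuucucuUGUGUGcggauagacuug
Nes: agaaccacugggGUGUGUGgaugagaacca
A run of at least 6 nt was found in 75.4% of 21901 protein-coding genes and one of at least 7 nt in 47.7%, so runs of this length set none of the 7 genes apart. The longest runs of Nefh, Ina, Prph and Vim were 5 nt, a length that 95.2% of genes reached. The match is a description of the letters, and binding was not measured in these libraries.

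Reads assigned to genes ranged from 332370 to 1219222 in MN1 footprint libraries, 1328528 to 2988339 in MN1 total mRNA, 166064 to 2528820 in neuron footprints and 600385 to 6969578 in neuron total mRNA. Levels are given as CPM, the read count scaled to the library's size with TMM factors. Cortical neuron markers summed to between 1613 and 2180 CPM in neuron footprints and to at most 15.91 CPM in MN1 footprints. Motor neuron markers summed to between 55.11 and 78.51 CPM in MN1 footprints, mostly Isl1 and Slc18a3, while Chat, the defining cholinergic enzyme, stayed at or below 2.826 CPM and at 0 in some libraries. Neuron cultures also held astrocyte markers (306.4 to 550.7 CPM summed in footprints, all 6 at a mean of 1 CPM or more), whereas in MN1 footprints 2 of those 6 were at 0 in every library. WT replicate 3 and hTDP-43 replicate 3 stood apart among the neuron total mRNA libraries, with 18.8% and 14.1% of their reads on Lars2 against 3.09% to 7.49% in the others. The targeted gene was checked in total mRNA: Tardbp was at 225.4 and 247.5 CPM in GFP-transfected MN1 cells against 348.8 to 417.7 CPM with hTDP-43 and 383.3 to 427.5 CPM with A315T, whereas in neurons the transgenic groups (58.54 to 88.47 CPM with hTDP-43, 65.81 to 82.62 CPM with A315T) were not above WT (65.68 and 113 CPM). Reads were mapped to the mouse genome, and how far human TARDBP reads were counted on Tardbp was not tested.

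All 7 genes were detected in both cell types, with very different make-up. In MN1 cells Prph was by far the most abundant and Vim the next, whereas cortical neurons carried mainly Ina, Nefl and Nefm. In MN1 footprints Prph stood between 662.7 and 1039 CPM in the 6 libraries, and in neuron footprints between 0 and 7.30 CPM in the 8. The plot of levels by library shows each value.

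**Figure D1:**
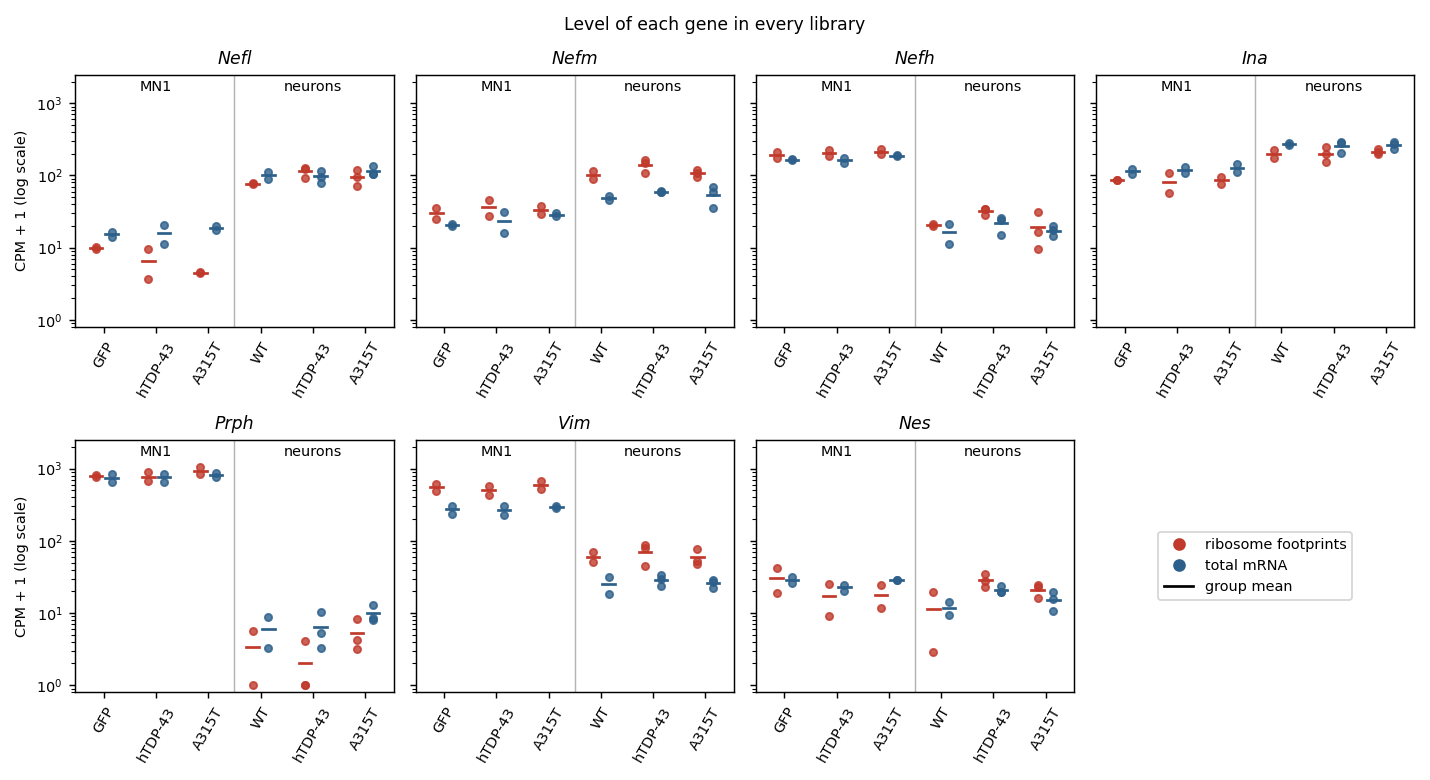
Level of each gene in every library, as CPM plus 1 on a log scale, with MN1 groups left and neuron groups right of the line in each panel; points are libraries (2 or 3 per group), short lines group means, red footprints and blue total mRNA. Prph, Vim and Nefh sit higher in MN1 cells and Nefl, Nefm and Ina higher in neurons, with no clear step between genotypes within a cell type.

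To set genes side by side, levels were divided by the merged length of all annotated exons of a gene. This length can exceed that of a transcript, and unequally: 4743 nt against 2193 nt for Vim, 1865 nt against 1863 nt for Prph. Per kilobase of exon, Prph made up 73.2% ± 2.37 (SD, n = 6) of the 7 genes' summed level in MN1 total mRNA. Vim followed with 10.3% ± 0.399, Nefh with 7.66% ± 1.05 and Ina with 6.62% ± 1.28. With coding length instead, Prph held 58.9% ± 2.23 and Vim 22.9% ± 0.951 of MN1 total mRNA. By exon length Nefh and Ina did not differ beyond their spread, and Nefl, Nefm and Nes each averaged below 1%. In MN1 footprints the order was the same for the leading 4, at 68.5% ± 1.84 for Prph, 17.8% ± 1.09 for Vim, 7.93% ± 1.16 for Nefh and 4.09% ± 1.25 for Ina. The order of Nefh and Ina depended on the length used, since by countable coding length Ina held 7.04% ± 2.11 and Nefh 5.70% ± 0.858 of MN1 footprints, and 12.1% ± 2.17 and 5.83% ± 0.719 of total mRNA.

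In neuron total mRNA Ina led with 59.2% ± 4.71 (SD, n = 8) of the summed level per kilobase, followed by Nefl with 22.4% ± 3.43 and Nefm with 6.85% ± 1.46. Nefh, the heavy subunit that matures last, held 3.25% ± 1.02, close to Vim (3.98% ± 0.681) and Prph (2.49% ± 1.18). By exon length these 3 did not differ beyond their spread. With coding length instead, Vim held 6.36% ± 1.07, above Nefh at 1.87% ± 0.598 and Prph at 1.44% ± 0.690. By exon length neuron footprints had the same leading 3. Ina held 46.8% ± 5.55, Nefl 21.1% ± 3.16 and Nefm 14.9% ± 1.65, then Vim 9.70% ± 1.83. Leaving the shared exon stretches out of the length raised Nefl to 27.2% of neuron total mRNA and 25.8% of neuron footprints and changed no order of the leading 3. By countable coding length Nefl held 34.9% ± 4.78 of neuron footprints, below Ina at 41.9%. Nefm and Vim did not differ beyond their spread by that length, at 10.3% ± 1.14 and 10.0% ± 1.88 of neuron footprints. The same held by coding length, at 15.4% ± 1.74 and 14.9% ± 2.64, so the third place in neuron footprints depended on the length used. With coding length in place of exon length, the share of Prph in MN1 footprints was 50.6% ± 1.67 and that of Vim 36.3% ± 1.81. Vim has 1398 coding nt in 4743 nt of merged annotated exons, and 1 of its coding transcripts is 2193 nt long.

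**Figure D2:**
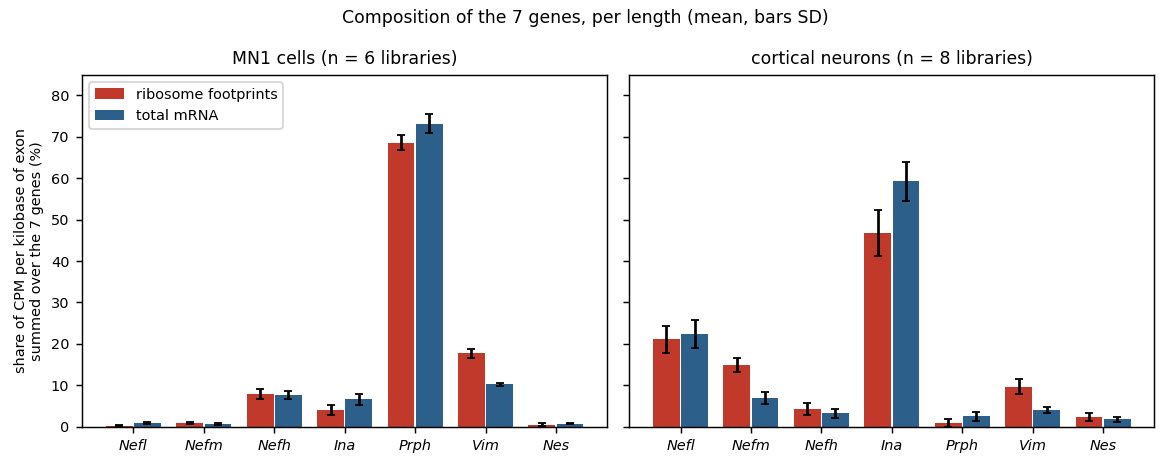
Share of each gene in the CPM per kilobase of exon summed over the 7 genes, in percent; bars are means over 6 MN1 or 8 neuron libraries, whiskers SD, red footprints and blue total mRNA. Prph takes 73.2% of MN1 total mRNA and Ina 59.2% of neuron total mRNA.

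The cell types were then compared gene by gene across all 14 libraries of a library type. In footprints 6 of the 7 genes differed by edgeR's quasi-likelihood test with Benjamini-Hochberg adjustment, against 82.6% of all genes tested, and in total mRNA 7 of 7, against 81.0%. A neuron and a clonal cell line differ in most genes, and the share of members called is near that background. Cell type, cycloheximide, transfection and culture date cannot be told apart here, and in bulk libraries fewer cells of a type cannot be told apart from less RNA per cell.

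The neurofilament subunits split. Nefl was at 2.67, 6.01 and 9.08 CPM (lowest, median and highest of 6) in MN1 footprints and at 70.3, 92.6 and 125 CPM (of 8) in neuron footprints. No library of one cell type reached the range of the other, and the difference was 3.999 ± 0.222 on the log2 scale (SE, adjusted p = 2.7e-13 by edgeR's quasi-likelihood test). In total mRNA Nefl ran from 10.4 to 19.9 CPM in MN1 cells and from 78.1 to 136 CPM in neurons, a log2 difference of 2.70 ± 0.17 (SE, edgeR adjusted p = 1.64e-09). The MN1 footprint values of Nefl rest on 30 reads in all 6 libraries together, with 1 to 9 reads each.

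Nefm, the medium subunit, was at 24.2, 31.2 and 45.5 CPM in MN1 footprints (lowest, median, highest) and 87.0, 112 and 162 CPM in neuron footprints. The ranges did not overlap, and the log2 difference was 1.88 ± 0.15 (SE, edgeR adjusted p = 2.11e-10), with 1.19 ± 0.19 in total mRNA (adjusted p = 3.24e-05). Ina was also higher in neurons, at 152, 203 and 248 CPM in footprints against 56.2, 85.6 and 106 CPM in MN1 cells, a log2 difference of 1.28 ± 0.14 (SE, edgeR adjusted p = 1.97e-08). Its difference in total mRNA was 1.15 ± 0.13.

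Nefh went the other way. Its footprint level was 174, 204 and 229 CPM in MN1 cells (lowest, median, highest) and 8.65, 23.7 and 33.7 CPM in neurons, a log2 difference of -3.08 ± 0.17 (SE, edgeR adjusted p = 2.62e-13), and in total mRNA it was -3.28 ± 0.16. Every MN1 library was above every neuron library. Heavy and light neurofilament subunits thus lay on opposite sides in the 2 cell types.

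Prph, typical of spinal motor and peripheral neurons, had the largest difference of the 7. MN1 footprints held 663, 825 and 1039 CPM, neuron footprints 0, 2.68 and 7.30 CPM with 34 reads in all 8 libraries together, and the log2 difference was -7.79 ± 0.23 (SE, edgeR adjusted p = 1.39e-17). The difference was -9.24 without WT replicate 2 and -9.12 without neuron hTDP-43 replicate 1. In total mRNA it was -6.77 ± 0.25. The 3 neuron footprint libraries without a Prph read were WT replicate 3 and hTDP-43 replicates 2 and 3, where 3 reads are between 5.21 and 18.1 CPM before TMM scaling.

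The progenitor and glial filaments differed from each other. Vim footprints stood at 425, 551 and 668 CPM in MN1 cells and 43.4, 59.97 and 87.7 CPM in neurons, a log2 difference of -3.13 ± 0.15 (SE, edgeR adjusted p = 1.48e-14), and -3.40 ± 0.15 in total mRNA. Nes footprints overlapped, at 8.02, 20.6 and 40.6 CPM in MN1 cells and 1.89, 21.9 and 33.7 CPM in neurons, with a log2 difference of -0.14 ± 0.31 (SE, edgeR adjusted p = 0.686). In total mRNA Nes was lower in neurons, by -0.82 ± 0.18 on the log2 scale (SE, adjusted p = 0.000758), with 19.4 to 30.3 CPM in MN1 cells and 8.31 to 22.5 CPM in neurons. Vim and Nes are also expressed by astrocytes and progenitors, whose markers were present in the neuron cultures (radial glia and progenitor markers summed to 83.24 to 161.9 CPM in neuron footprints and 8.021 to 25.6 CPM in MN1 footprints), and the part of those cells in the Vim and Nes levels was not tested.

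**Figure D3:**
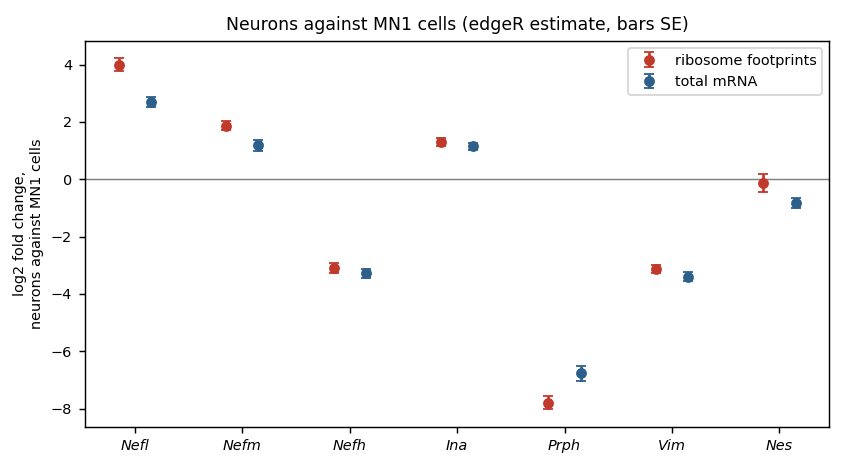
Log2 fold change of each gene in neurons against MN1 cells, from edgeR over 14 libraries per library type; points are estimates, bars SE, red footprints and blue total mRNA. Nefl, Nefm and Ina lie above 0, Nefh, Prph and Vim below, and the Nes footprint estimate is -0.14 ± 0.31.

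Footprints were compared with total mRNA of the same cultures, which sets ribosome-protected fragments against the mRNA of each gene. The main test, and so its SE and p, took the footprint and total mRNA library of a culture as independent. An alternative fit with a term for each culture, the culture block, paired them. The contrast also holds every difference between the 2 library protocols, so it is read between genes and cell types. In MN1 cells 5 of 7 genes differed by edgeR's quasi-likelihood test (57.4% of all genes tested), and 6 of 7 with the culture block (61.5%). In neurons 2 of 7 differed (54.0% of all genes tested), and 4 of 7 with the block (57.5%).

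Vim carried more footprints than its mRNA level in both cell types. The ratio of footprint to total mRNA CPM was 1.87, 1.96 and 2.21 over the 6 MN1 cultures (lowest, median, highest) and 1.33, 2.56 and 3.90 over the 8 neuron cultures. Every culture was above 1, and the log2 difference was 1.06 ± 0.13 in MN1 cells and 1.34 ± 0.18 in neurons (SE, edgeR adjusted p = 7.2e-06 in both). Nefm did so in neurons, with ratios of 1.66, 2.17 and 3.09 and a log2 difference of 1.20 ± 0.15 (SE, edgeR adjusted p = 2.42e-06). In MN1 cells the Nefm ratio ran from 0.887 to 2.99, and its log2 difference of 0.51 ± 0.21 (adjusted p = 0.0465) was past the threshold only narrowly: leaving out any culture but hTDP-43 replicate 1 gave adjusted p from 0.0526 to 0.274.

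Nefl had fewer footprints than mRNA in MN1 cells, with ratios of 0.182, 0.343 and 0.688 (lowest, median, highest of 6). All 6 cultures were below 1, and the log2 difference was -1.37 ± 0.29 (SE, edgeR adjusted p = 0.000966). The ratios were 0.688 and 0.545 in the GFP cultures, 0.427 and 0.258 with hTDP-43 and 0.182 and 0.214 with A315T. In the GFP cultures alone the difference was -0.67 and the call was lost (edgeR adjusted p = 0.227). In neurons the Nefl ratio was 0.672, 0.970 and 1.28, with a log2 difference of -0.05 ± 0.14 (adjusted p = 0.781). Since the shared stretch takes more of Nefl's coding sequence than of its exons (621 of 1629 coding nt and 2272 of 3380 exon nt are countable), its ratio may be understated in both cell types.

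Ina lay below 1 in each MN1 culture, from 0.516 to 0.824, with a log2 difference of -0.41 ± 0.13 (SE, edgeR adjusted p = 0.0153). In neurons its ratio ran from 0.543 to 0.966, at -0.28 ± 0.12 (edgeR adjusted p = 0.0671, and 0.0355 with the culture block). Ina in neurons also passed with DESeq2 (adjusted p = 0.0218) and with its size factors in edgeR (0.0215). Leaving out GFP replicate 1 or A315T replicate 1 ended the MN1 call for Ina (adjusted p = 0.0594 and 0.0627), and leaving out neuron hTDP-43 replicate 1 or 3 or WT replicate 2 brought the neuron value to 0.0459, 0.0121 and 0.0397. Nefh in MN1 cells ran from 1.06 to 1.53, at 0.32 ± 0.09 (SE, edgeR adjusted p = 0.00809), a call lost without GFP replicate 1, A315T replicate 1 or hTDP-43 replicate 2 (adjusted p = 0.05, 0.0589 and 0.0708). In neurons the Nefh ratio spanned 0.637 to 1.93, at 0.50 ± 0.24 (adjusted p = 0.0921). Prph was near 1 in MN1 cells, from 0.981 to 1.20, at 0.18 ± 0.12 (adjusted p = 0.214, and 0.0389 with the block), and from 0 to 0.955 in neurons, at -0.90 ± 0.46 (adjusted p = 0.107, and 0.0283 with the block). Without WT replicate 2 the neuron Prph value was -2.41 (edgeR adjusted p = 0.0812), and without hTDP-43 replicate 1 or A315T replicate 1 Prph fell below the filter. The Nes ratio ran from 0.338 to 1.61 over the MN1 cultures and from 0.228 to 1.58 over the neuron cultures, with adjusted p of 0.531 and 0.14.

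**Figure D4:**
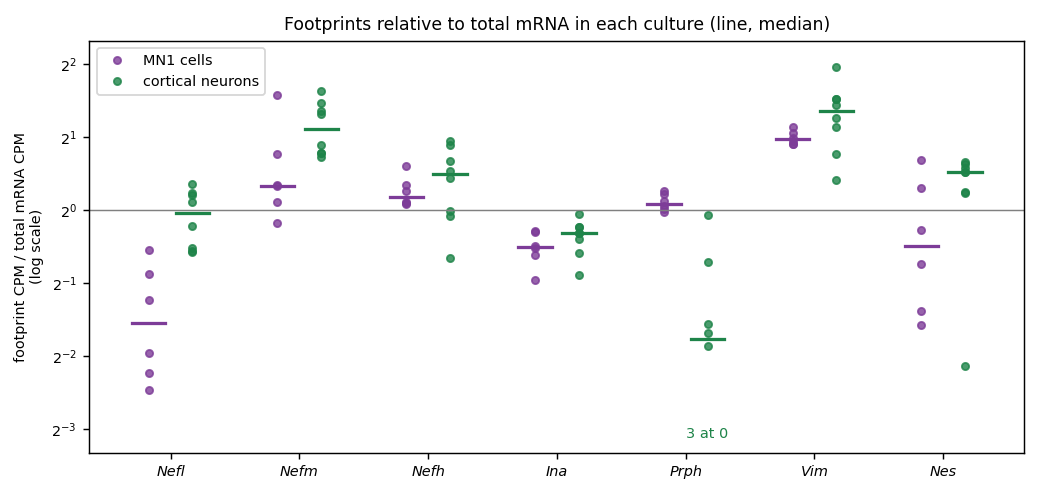
Ratio of footprint CPM to total mRNA CPM in each culture on a log scale, with purple points for 6 MN1 cultures and green points for 8 neuron cultures; lines are medians, and the 3 neuron cultures without a Prph footprint are written as a count. All MN1 points of Nefl lie below 1 and all points of Vim above 1.

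Whether this ratio, termed translational efficiency, differed between the cell types was tested as an interaction over all 28 libraries. The main fit again did not pair the libraries of a culture. Of the 7 genes, Nefl passed the test (8.07% of all genes tested did, 73.6% of them higher in neurons, against 31.0% of the calls with DESeq2's size factors). With the culture block Nefl, Nefm and Prph passed (10.7% of all genes tested). The Nefl ratio was higher in neurons by 1.42 ± 0.32 on the log2 scale (SE, edgeR adjusted p = 0.00683), where the median of all genes was 0.20. Scaled by DESeq2's size factors, which moved the median of all genes by -0.22 to -0.02, it was 1.20 ± 0.30 (adjusted p = 0.0191). The call was lost without MN1 hTDP-43 replicate 1 (adjusted p = 0.0995), and in the GFP and WT cultures alone the difference was 0.24 (adjusted p = 1). The GFP libraries hold 9 and 8 of the 30 MN1 footprint reads.

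Nefm was higher in neurons by 0.79 ± 0.25 (SE, edgeR adjusted p = 0.0528), and by 0.80 with the block (adjusted p = 0.0413), and it passed without MN1 hTDP-43 replicate 2 (1.04, adjusted p = 0.0222) or neuron WT replicate 3 (0.87, adjusted p = 0.0466), but fell to 0.24 without MN1 hTDP-43 replicate 1. Prph was lower by -0.94 ± 0.41 (adjusted p = 0.161), and by -1.07 with the block (adjusted p = 0.0333). The differences of Nefh (0.30), Ina (0.24), Vim (0.38) and Nes (0.79) had adjusted p from 0.219 to 0.544.

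The question the study was built for is whether hTDP-43 or its A315T mutant alters mRNA or ribosome footprints. Over the 18 comparisons between pairs of genotypes (footprints, total mRNA and their ratio, 3 pairs in each cell type), 119 tests of the 7 genes gave 0 calls by edgeR's quasi-likelihood test, with a smallest adjusted p of 0.724. At an unadjusted p under 0.05 there were 4 by edgeR and 0 by DESeq2, which also called 0. With the replicate block, or the culture block for the ratio, edgeR called 0 as well. There were 3 at an unadjusted p under 0.05, with a smallest adjusted p of 0.327. Comparisons within a cell type share groups, so their values are not independent.

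In MN1 footprints 6 of the 7 genes could be tested, since Nefl fell below the filter on low counts. None was called in A315T against GFP, where 0.0115% of all genes tested were (0.624% with the replicate block), in hTDP-43 against GFP, with 0% (0.156%), or in A315T against hTDP-43, with 0% (0.706%). In MN1 total mRNA, where 7 were tested, none was called in A315T against GFP (0.00965% of all genes, 2.73% with the block), hTDP-43 against GFP (0.01%, 0.472%) or A315T against hTDP-43 (0%, 0.754%). Calls on the footprint to mRNA ratio in MN1 cells were 0% of all genes in each pair, and 0.0198%, 0% and 0.0399% with the culture block.

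Total mRNA of the 3 neurofilament subunits in both A315T cultures of MN1 cells lay above both GFP cultures. Total mRNA of Nefm was 26.1 and 29.3 CPM with A315T and 19.3 and 20.1 CPM with GFP, but 30.3 and 15.2 CPM with hTDP-43. The A315T cultures lay above the GFP cultures, and the hTDP-43 cultures on both sides of them. Nefl showed 18.8 and 16.5 CPM with A315T, 13.2 and 15.7 CPM with GFP, and 19.9 and 10.4 CPM with hTDP-43, and Nefh 191 and 183 CPM with A315T, 168 and 162 CPM with GFP, and 174 and 147 CPM with hTDP-43. Nefl, Nefm and Nefh were thus 3 of 7 genes whose A315T range lay above the GFP range, as for 24.7% of all genes tested. The largest of these differences was 0.42 on the log2 scale for Nefm.

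Prph total mRNA was 759 and 868 CPM with A315T, 656 and 836 CPM with GFP, and 656 and 850 CPM with hTDP-43. Its footprints were 830 and 1039 CPM with A315T, 767 and 820 CPM with GFP, and 663 and 882 CPM with hTDP-43. Prph was the only 1 of 6 genes whose A315T footprints lay above the GFP range, as for 15.3% of all genes, and its log2 difference was 0.24. Nes total mRNA was lower with hTDP-43, at 19.4 and 23.7 CPM, than with GFP, at 30.3 and 25.2 CPM, or A315T, at 27.9 and 27.5 CPM. It was 1 of 7 genes whose range lay below GFP (13.2% of all genes), and Nes and Nefh were 2 of 7 whose A315T range lay above hTDP-43 (27.3%). The log2 differences of Nes were -0.33 against GFP and 0.27 for A315T against hTDP-43, neither of them called.

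Across the MN1 pairs, footprint differences ran from -0.68 (Nes) to 0.31 (Nefm) on the log2 scale and total mRNA differences from -0.33 (Nes) to 0.42 (Nefm). Nefl footprints, on 4 and 2 reads with A315T, 9 and 8 with GFP and 6 and 1 with hTDP-43, gave the widest ratio difference, -1.59 ± 0.62 for A315T against GFP (SE, edgeR unadjusted p = 0.0253, adjusted p = 1). At such counts the size of a difference was not determined.

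In neurons none of the 7 genes was called in any pair. Of all genes tested, 0% were called in footprints of A315T against WT (0.0841% with the replicate block), 0% of hTDP-43 against WT (0.0616%) and 0% of A315T against hTDP-43 (0.179%), and in total mRNA 0% (0.293%), 0% (0.169%) and 0% (0% with the block) in the same order. Ratio tests in neurons called 0% of all genes in each pair, with and without the culture block. Prph was below the filter in the footprint pairs and in the ratio of hTDP-43 against WT.

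Nefl and Nefh footprints in all 3 hTDP-43 neuron cultures lay above both WT cultures, a difference that was not called. Nefl footprints were 125, 92.3 and 121 CPM in hTDP-43 neurons, 76.6 and 75.7 CPM in WT and 119, 92.9 and 70.3 CPM in A315T neurons. All 3 hTDP-43 cultures lay above both WT cultures, while the A315T cultures spanned the WT level. The log2 difference of hTDP-43 against WT was 0.62 ± 0.21 (SE, edgeR unadjusted p = 0.01, adjusted p = 0.724), and in total mRNA the Nefl values of these groups (116, 78.1 and 94.6 CPM against 110 and 88.1 CPM) overlapped.

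Nefh footprints were 33.7, 27.1 and 33.7 CPM in hTDP-43 neurons, 20.3 and 18.9 CPM in WT and 30.1, 15.5 and 8.65 CPM in A315T neurons. Again the hTDP-43 cultures were above WT, by 0.71 ± 0.33 on the log2 scale (SE, edgeR unadjusted p = 0.0468, adjusted p = 0.915). With the replicate block neither Nefl nor Nefh had an unadjusted p under 0.05 by edgeR in hTDP-43 against WT footprints. Nefm footprints were 147, 109 and 162 CPM in hTDP-43 neurons, 116 and 87.0 CPM in WT and 116, 95.1 and 106 CPM in A315T neurons. hTDP-43 and WT overlapped in Nefm, and A315T against hTDP-43 gave -0.39 ± 0.17 (SE, edgeR unadjusted p = 0.0426, adjusted p = 1).

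Nes footprints were 27.0, 21.7 and 33.7 CPM in hTDP-43 neurons and 18.8 and 1.89 CPM in WT, with 23.2, 22.1 and 15.1 CPM in A315T. Nefl, Nefh and Nes were 3 of the 6 genes whose hTDP-43 footprints lay above WT, as for 9.78% of all genes tested. Total mRNA of Nes was 18.8, 18.4 and 22.5 CPM in hTDP-43 neurons, 13.1 and 8.31 CPM in WT and 14.7, 18.6 and 9.74 CPM in A315T, and that of Nefm 59.1, 58.6 and 58.5 CPM, 45.2 and 50.3 CPM, and 67.3, 57.3 and 34.2 CPM in the same order. Nes and Nefm were 2 of 7 genes whose hTDP-43 total mRNA lay above WT, as for 4.25% of all genes tested. The read numbers behind these values were small in places: hTDP-43 replicates 2 and 3 gave 17 and 18 Nefl footprints, and the WT replicate 3 value of Nes is 1 read. Astrocyte markers summed to 412.5 to 492.5 CPM in hTDP-43 footprints and 306.4 to 459.1 CPM in WT. Radial glia and progenitor markers summed to 108.5 to 161.9 CPM and 128.6 to 156.4 CPM in the same order. The part of either in the Nes values was not tested.

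Ina and Vim did not separate by genotype. Ina footprints were 248, 152 and 196 CPM in hTDP-43 neurons, 226 and 174 CPM in WT and 208, 197 and 232 CPM in A315T neurons, and its footprint differences were between 0.02 and 0.08 on the log2 scale, and from -0.22 to 0.11 with the replicate block. Vim footprints were 78.3, 43.4 and 87.7 CPM, 68.0 and 49.2 CPM, and 47.2, 75.2 and 51.9 CPM in the same order. The groups overlapped in both genes. Over the neuron pairs, total mRNA differences ran from -0.46 (Nes) to 0.87 (Nes), and Prph, with 1 to 58 reads in a library, gave 0.76 for A315T against WT.

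**Figure D5:**
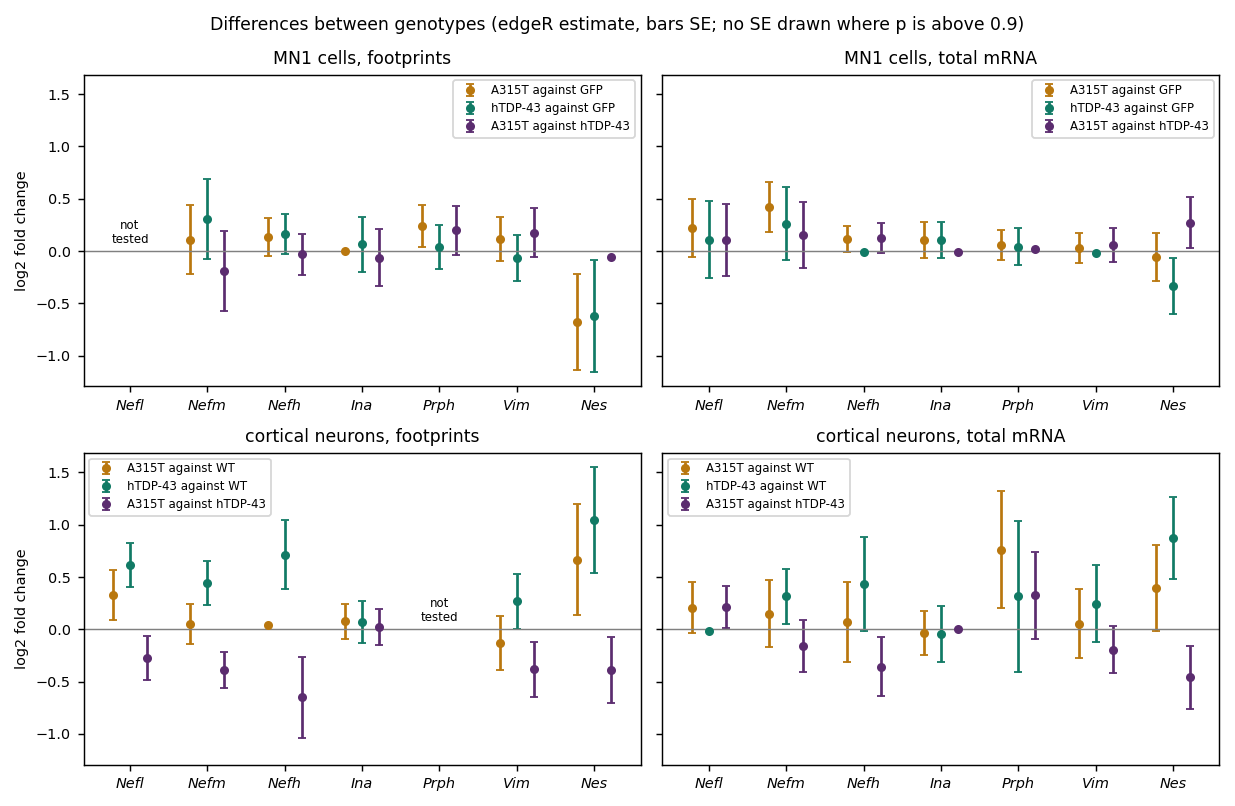
Log2 fold change of each gene for 3 pairs of genotypes in each cell type and library type (edgeR estimate, bars SE, no SE where p is above 0.9; genes below the filter are marked as not tested). The estimates lie between -0.68 and 1.04, and none of the 7 genes was called in any pair.

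Genes that act on the filaments were counted from lists. Between neurons and MN1 cells, 8 of the 10 tested linkers, motors and turnover factors were higher in neuron total mRNA and 1 lower, with a median log2 difference of 1.59 against 0.09 over all genes, of which 42.6% were called higher and 38.4% lower. They included the neurofilament-carrying kinesin Kif5a (4.51) and the ubiquitin ligase Trim2 (4.11), which targets Nefl, and the ligase Stub1 was lower (-0.47). Of 8 filament kinase and phosphatase genes 7 were higher, led by the Cdk5 activator Cdk5r1 (7.38) and the phosphatase subunit Ppp2r2b (4.57). Among 7 tested of 12 other intermediate filament genes 2 were higher, the astrocyte filament Gfap (4.54) and Synm (1.31), and 5 lower, with Krt8 (-4.73) and Sync (-3.17) in front. Of 8 proteins that bind neurofilament mRNA, 3 were higher (Matr3 1.19, Ywhaz 1.07 in front). Another 5 were lower, led by Tardbp (-2.08) and Hnrnpk (-1.20). The Tardbp value includes cultures that carry human TARDBP, and the part of its reads was not tested. In control cultures Tardbp was at 225.4 and 247.5 CPM in MN1 total mRNA (GFP) and at 65.68 and 113 CPM in neurons (WT).

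In footprints against total mRNA the mRNA-binding list had 5 of 8 genes higher and 2 lower in MN1 cells and 5 higher and 1 lower in neurons. Of all genes tested 27.2% were higher and 30.2% lower in MN1 cells, and 26.6% higher and 27.3% lower in neurons. Matr3 was at 1.09 and 1.33 and Hnrnpk at 0.95 and 1.20 in the 2 cell types, and Ywhaz fell by 0.65 and 1.04 on the log2 scale. Of 10 linkers and motors 6 were lower and 1 higher in MN1 cells and 4 were lower in neurons (7 and 5 lower with the culture block). Among the lower were Dync1h1 (-1.11) and Kif5a (-0.998) in MN1 cells and the linker Dst (-1.91) in neurons. Other intermediate filament genes were divided, with Lmnb1 (0.68) and Lmna (0.45) higher and Synm (-0.52) and Lmnb2 (-0.45) lower in MN1 cells. Between genotypes 1 gene of all tested was called at most in a pair by edgeR without a block. DESeq2 called 11 in MN1 total mRNA of A315T against hTDP-43. With the replicate block, Tardbp in MN1 total mRNA was higher with A315T and hTDP-43 than with GFP (0.71 and 0.72). The plasmids of these cultures encode human TDP-43, and how far its reads were counted on Tardbp was not tested. Matr3 was lower with A315T against GFP (-0.79), and Kif5b with A315T against GFP (-0.79) and against hTDP-43 (-0.82). Of all genes tested with the block, 2.73% were called in A315T against GFP, 0.472% in hTDP-43 against GFP and 0.754% in A315T against hTDP-43.

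Over the 12 groups of cell type, genotype and library type, the genes whose centred log2 levels lay nearest to each member among 12358 genes were found by root mean square difference, as a description. Ina had the closest matches, Gnb1 at 0.107 and Ptprf at 0.114, and Vim the next, Lgals3bp at 0.12 and Trp53 at 0.179. Nefm lay nearest to Ppp2r1a (0.166) and Chrm4 (0.177), Nefl to Scamp5 (0.226) and Olfm1 (0.234), Nefh to Xrcc6 and Lamc1 (0.2 each) and Nes to Arc (0.274) and Coa4 (0.287). Prph had no near match, the closest being Ccna2 (0.506) and Ucp2 (0.556), and no member was among the 2 nearest genes of another. The 12 points share 2 cell types and 2 library protocols, so the measure is set mostly by those differences.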

How the data were processed

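Ribosome footprints and poly(A)-selected total mRNA were measured in 14 cultures (28 libraries). The authors clipped adapters with cutadapt 1.8.1, removed reads on non-coding RNA with Bowtie2, aligned the rest to GRCm38 with TopHat2 and deposited raw counts of reads on exons (Ensembl 80) from featureCounts 1.4.4. The counts are not normalized or pooled, and their number per gene limits the precision. From them CPM (TMM) and edgeR 4.0.16 quasi-likelihood tests (R 4.3.3; minimum count 10, minimum total 15; Benjamini-Hochberg over all genes tested, threshold 0.05) were computed, after a check of the scripts on simulated data. The study's own DESeq was replaced by edgeR, with DESeq2 1.42.0 as an alternative. SE is the log2 fold change over the root of the F statistic and is not given for p above 0.9. Replicate numbers pair cultures by the date in the sample titles: deviations from group means correlated by 0.336 (MN1 footprints), 0.442 (MN1 total mRNA), 0.12 and 0.171 (neurons) on average between cultures of the same number. Main fits had no block. As an alternative, the replicate block was used for footprints or total mRNA between genotypes. Where footprints and total mRNA entered the same fit, the culture block paired the libraries of a culture. Other alternatives were DESeq2, its size factors, no filter, each culture left out, control cultures only and other lengths. Chosen after seeing the data were 2 Lars2-rich neuron cultures left out and countable lengths. Named genes were all 7 members, and from each list at most 2 called genes per direction with the largest difference. The members and lists were chosen with earlier results of these data known. Symbols matched 44585 of 45513 genes, and Eppk1, on the linker list, had no single entry.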

Additional observations from a re-analysis of the deposited data

Results flagged for a closer look

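In 1 tested case, and in 2 untested ones by the order of the samples, the cell types stood apart under the same contrast. The Nefl footprint to mRNA ratio was 1.42 ± 0.32 higher in neurons than in MN1 cells on the log2 scale (edgeR's quasi-likelihood test of the interaction, adjusted p = 0.00683), and 13 of 14 fits with 1 culture left out kept the call, which was lost without MN1 hTDP-43 replicate 1 (adjusted p = 0.0995). In the GFP and WT cultures alone it was 0.24 (adjusted p = 1), and the MN1 side rests on 30 footprint reads. Nefl footprints of hTDP-43 cultures were all below GFP in MN1 cells (log2 ratio of mean CPM -0.66) and all above WT in neurons (0.57), which is 1.23 apart, and the difference was not tested. The MN1 order rests on 6 and 1 reads with hTDP-43 and 9 and 8 with GFP. The nearest cultures were at 8.48 and 8.55 CPM, and Nefl was below the filter there. Of genes past the filter 20.9% lay lower without overlap in that MN1 comparison and 9.78% higher in the neuron one. Nes total mRNA of hTDP-43 cultures was likewise below GFP in MN1 cells (-0.36) and above WT in neurons (0.9), which is 1.26 apart, and this difference was not tested. In total mRNA 13.2% of all genes lay lower without overlap in MN1 cells and 4.25% higher in neurons.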

How the results depend on the processing

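The 0 calls between genotypes and the calls between cell types in footprints (6 of 7) and total mRNA (7 of 7) had the same counts in every alternative run. Footprints against total mRNA in MN1 cells gave 5 calls, 6 with the culture block, 3 without the filter and 4 with DESeq2 (Nefm lost). Control cultures only gave 1, and fits with 1 culture left out gave 2 to 5. The count was 2 without GFP replicate 1 or A315T replicate 1 and 3 without hTDP-43 replicate 2. In neurons the same contrast gave 2 calls, 4 with the culture block and 3 with DESeq2 or its size factors in edgeR (Ina gained). Control cultures only gave 0 there, and fits with 1 culture left out gave 2 to 3. Translational efficiency between the cell types gave 1 call, 3 with the culture block, 0 in control cultures only and 2 without the Lars2-rich cultures. Fits with 1 culture left out gave 0 to 2 (0 without MN1 hTDP-43 replicate 1). Control cultures only are 2 per cell type, so fewer libraries enter those fits. Between cell types and library types the sign turned for Nes in MN1 footprints against total mRNA (0.13 in control cultures only, -0.63 to 0.02 with 1 culture left out), in the same contrast in neurons (-0.33 to 0.52) and between cell types in footprints (0.12 without the Lars2-rich cultures, -0.98 to 0.30), and in translational efficiency for Nefh (-0.01 to 0.48) and Ina (-0.12 in control cultures only); none of these was past the threshold, and the cause was not tested. The share of Prph in MN1 footprints, 68.5% by exon length, was 50.6% by coding length and 49.4% by countable coding length. Between genotypes, where no estimate was past the threshold, 10 of 119 estimates had the other sign with the replicate or culture block. Among them was Nefh in neuron footprints of A315T against WT (0.04 and -0.73). With 1 culture left out, 121 of 550 had the other sign. In translational efficiency between the cell types Prph was -2.40 without neuron WT replicate 2 and -2.36 without neuron hTDP-43 replicate 1. Neither block changed another call of the 7 genes. Depth limits Nefl in MN1 footprints (30 reads) and Prph in neuron footprints (34 reads).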
